A study of Homo sapiens with 13 samples.

Results

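The keratin gene clusters were described across 6 lists of ChIP-seq peaks from MDA-MB-231, an established human breast cancer cell line of the triple negative, basal B type. Members were the protein-coding genes of GENCODE release 44 on hg19 named KRT with a number and, where present, a letter, which left out the keratin-associated protein (KRTAP) genes; 55 of the 19894 protein-coding genes with a canonical transcription start site (TSS) met that rule. Of these, 28 lie in the type I cluster on chromosome 17 and 27 on chromosome 12, in the type II cluster, where KRT18 is the type I gene that sits beside KRT8.

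The study mapped enhancers and promoters in these cells by chromatin immunoprecipitation and sequencing (ChIP-seq) with antibodies to CTCF, RNA polymerase II (Pol II), the co-activators p300/CBP and the histone marks H3K4me1, H3K27ac and H3K4me3. Each antibody had 2 replicate libraries, merged by the authors before peaks were called, except p300/CBP, whose 1 library came from pooled immunoprecipitations. All groups were the same cells in routine culture, with no treatment, genotype or time point that differs between them, so the comparisons here are between genes and regions. The lists hold positions without heights, so depth was unknown, no error between replicates could be given, and a gene without a peak is one where the signal did not pass the authors' threshold.

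Keratins form the intermediate filaments of epithelial cells from pairs of an acidic type I and a basic type II protein. KRT8 with KRT18, and KRT7 and KRT19, mark simple epithelia such as the lining of glands; KRT5 with KRT14 mark basal cells, KRT1 with KRT10 the suprabasal epidermis, and a large set of further pairs builds hair and the inner root sheath. In chromatin, H3K4me3 and Pol II mark active TSSs, H3K4me1 with H3K27ac marks active enhancers and the flanks of active TSSs, p300/CBP acetylates histones there, and CTCF binds boundaries and loop anchors.

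Before the values, the sequences under the p300/CBP peaks around KRT7 are shown, because the 6 p300/CBP peaks of the type II cluster lay between the TSSs of KRT80 and KRT81. All are the plus strand of hg19, from the first to the last base of the peak (or its middle 300 bases), with matches to TGANTCA on either strand, the site bound by AP-1, in capitals. The peak 17.5 kb upstream of the KRT7 TSS lay at chr12:52609401-52609500, the one 2.58 kb upstream at chr12:52624101-52624400, and those in introns of KRT7, 10.9 and 14.2 kb past its TSS, at chr12:52637951-52638100 and chr12:52641201-52641400.

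KRT7 upstream 17.5 kb: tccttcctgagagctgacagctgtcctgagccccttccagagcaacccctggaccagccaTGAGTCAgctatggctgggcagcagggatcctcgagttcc
KRT7 upstream 2.58 kb: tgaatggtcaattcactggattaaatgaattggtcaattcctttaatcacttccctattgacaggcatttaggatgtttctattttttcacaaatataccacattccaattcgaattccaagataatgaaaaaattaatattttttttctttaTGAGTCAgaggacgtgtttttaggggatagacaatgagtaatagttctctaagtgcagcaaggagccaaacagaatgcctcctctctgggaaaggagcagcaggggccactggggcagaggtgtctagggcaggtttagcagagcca
KRT7 intron at 10.9 kb: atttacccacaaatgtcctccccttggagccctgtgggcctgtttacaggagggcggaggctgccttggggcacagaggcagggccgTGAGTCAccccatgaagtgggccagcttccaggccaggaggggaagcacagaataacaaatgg
KRT7 intron at 14.2 kb: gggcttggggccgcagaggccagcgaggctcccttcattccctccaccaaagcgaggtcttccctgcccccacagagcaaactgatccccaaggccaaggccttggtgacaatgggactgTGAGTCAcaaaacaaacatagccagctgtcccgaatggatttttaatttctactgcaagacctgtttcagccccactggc

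Each of these 4 peaks held 1 match. In the whole list, 28.1% of p300/CBP peaks held a match, and 42.7% of those that share a base with H3K4me1. The other 2 peaks of that cluster, 450 and 200 bp wide and in introns of KRT86, 5.67 and 6.32 kb past its TSS, held 0.

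Few keratin TSSs carried the marks of active promoters. In windows of 3 kb centred on the canonical TSS, H3K4me3 was present at 5 of 55 keratins (9.09%, 95% Wilson interval 3.95 to 19.6%), beside 62.7% of all protein-coding genes. Pol II was present at the same 5 keratins (9.09%), beside 58.4% of all genes. H3K27ac was present at 7 (12.7%, interval 6.30 to 24.0%), beside 61.4%.

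H3K4me1, which also marks poised regions, was the mark that reached the most keratin windows, 15 of 55 (27.3%, interval 17.3 to 40.2%), beside 59.3% of all genes. CTCF was present in 2 windows (3.64%, interval 1.0 to 12.3%), beside 17.6%. p300/CBP was present in 0 of 55, beside 0.769% of all genes, a background so low that a count of 0 says little. No peak of any list was found in the windows of 40 keratins (72.7%, interval 59.8 to 82.7%), beside 28.0% of all genes, and H3K4me1 alone in 8 (14.5%), beside 4.29%. These intervals cover counting error only, and cluster neighbours share peaks, so the genes are not independent of each other.

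**Figure D1:**
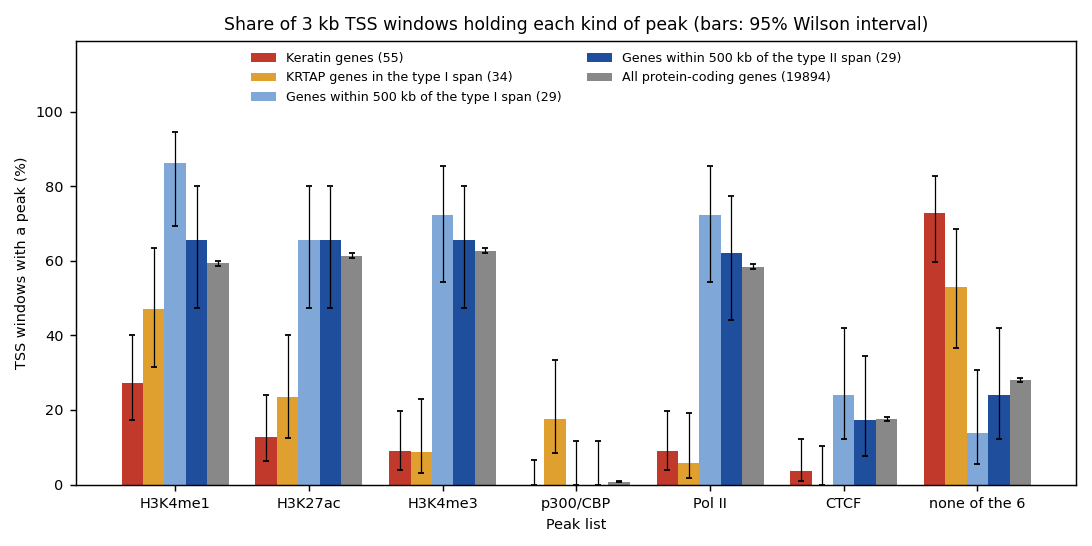
Share of 3 kb TSS windows (percent, vertical axis) with a peak of each list for the 55 keratins, the 34 KRTAP genes in the type I span, the genes within 500 kb of each span and all 19894 protein-coding genes; bars carry 95% Wilson intervals. The keratin bars are below those of the flanking genes and of all genes for H3K4me1, H3K27ac, H3K4me3 and Pol II, and above them for windows with none of the 6.

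Genes next to the clusters did not share this sparseness. Of the 29 protein-coding genes within 500 kb of the type I span, 21 (72.4%) had H3K4me3 in the window, against 1 of 28 keratins inside it (3.57%). Of the 29 within 500 kb of the type II span, 19 (65.5%) had H3K4me3, against 4 of 27 keratins (14.8%). The 34 KRTAP genes, which lie inside the type I span and encode matrix proteins of the hair shaft, were closer to the keratins: 3 had H3K4me3 (8.82%) and 8 had H3K27ac (23.5%). In the window, 6 (17.6%) had p300/CBP, beside 0.769% of all genes. Some p300/CBP peaks among the KRTAP genes share sequence, as given below, and the uniqueness of KRTAP windows was not measured.

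The simple epithelial keratins held 4 of the 5 windows with H3K4me3. KRT7, KRT8, KRT18 and KRT19 had H3K4me1, H3K27ac, H3K4me3 and Pol II, and KRT20, the intestinal member of the group, had a peak of none of the 6 lists in its window or its gene body. H3K27ac covered all 3000 bp of the 4 marked windows. H3K4me3 covered 2776 bp at KRT7, 1891 bp at KRT8, 2701 bp at KRT18 and 3000 bp at KRT19, and Pol II 2324, 1641, 3000 and 3000 bp in the same order.

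The fifth gene with this combination was KRT80, a type II keratin of many epithelia, with H3K27ac over 3000 bp, H3K4me3 over 1703 bp and Pol II over 1653 bp of its window. H3K4me1 flanked all 5 TSSs without covering them: the nearest edge lay 0.448 kb away at KRT80, 0.727 kb at KRT7, 0.241 kb at KRT8, 0.752 kb at KRT18 and 0.391 kb at KRT19. CTCF joined the other marks at KRT7, with a peak of 100 bp that ended 0.127 kb upstream of the TSS, and at KRT8, with a peak of 300 bp over the TSS. These were the 2 keratin windows with CTCF.

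**Figure D2:**
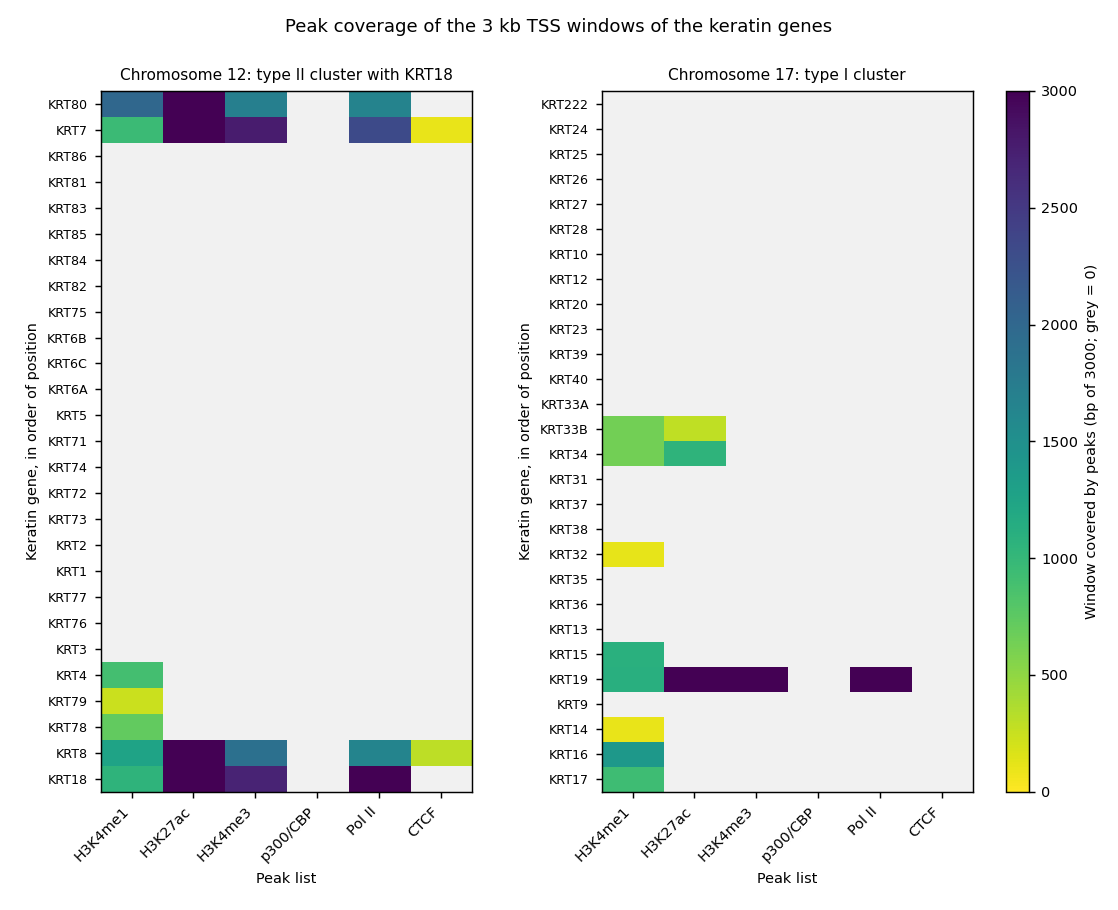
Base pairs of each 3 kb TSS window covered by peaks (colour, 0 to 3000 bp, grey for 0) for the 27 genes of the type II cluster with KRT18 and the 28 of the type I cluster, in order of position. KRT80, KRT7, KRT8, KRT18 and KRT19 carry colour in the H3K4me1, H3K27ac, H3K4me3 and Pol II columns, and the p300/CBP column is empty.

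Several peaks at these genes were wider than the medians of their lists. At KRT7, Pol II covered 80.8% of the 19.7 kb gene body, with a peak of 14350 bp that began 2.87 kb past the TSS, and an H3K4me1 peak of 15250 bp lay over much of the same stretch. At KRT19, a Pol II peak of 9700 bp, an H3K27ac peak of 10450 bp and an H3K4me3 peak of 6650 bp each covered the TSS. The Pol II and H3K27ac peaks ran on past the end of KRT19 into KRT15.

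At KRT18, a Pol II peak of 9950 bp covered the whole 4.04 kb gene and its surroundings, with H3K27ac of 6250 bp and H3K4me3 of 3650 bp over the TSS. KRT80 held an H3K27ac peak of 11500 bp over its TSS and 5 Pol II peaks, of 950, 1000, 3800, 1150 and 3250 bp, of which the last covered the TSS. At KRT8, the peaks over the canonical TSS were 1850 bp for Pol II, 5900 bp for H3K27ac and 2600 bp for H3K4me3. Median widths over the whole lists, which include peaks away from TSSs, were 850.0 bp for Pol II, 1300 bp for H3K27ac and 1150 bp for H3K4me3. Among all genes with H3K4me3 in the window, it covered a median of 2079 bp. KRT8 (1891 bp) and KRT80 (1703 bp) were below that, and KRT7, KRT18 and KRT19 above it. Peak width depends on the gap that the authors allowed within a peak, up to 800 bp for Pol II and 1000 bp for H3K4me1.

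**Figure D3:**
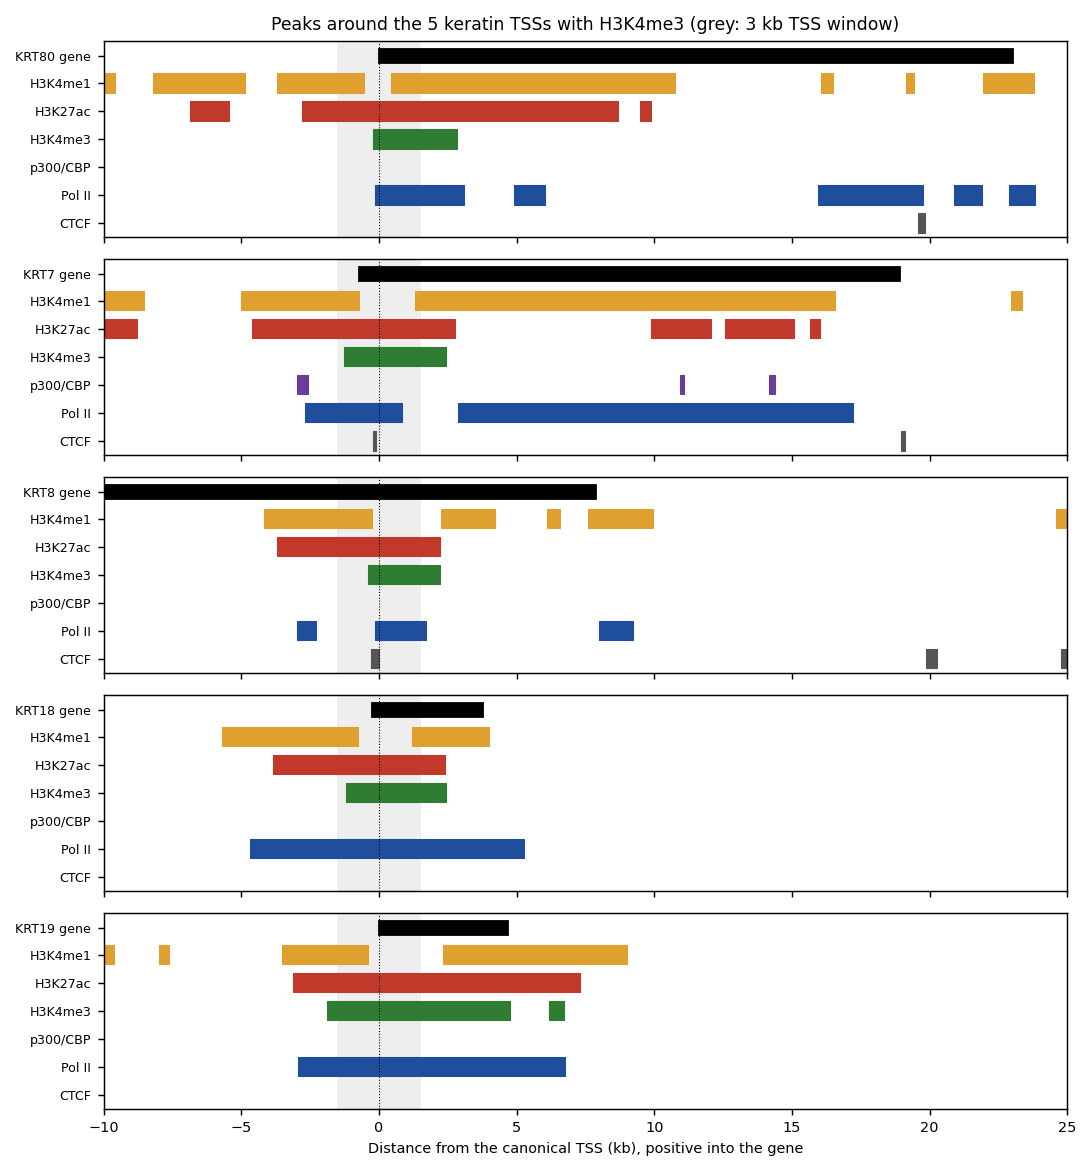
Peaks of the 6 lists (coloured boxes) around the canonical TSSs of KRT80, KRT7, KRT8, KRT18 and KRT19, with distance from the TSS in kb on the horizontal axis, positive into the gene, the gene body in black and the 3 kb window in grey. H3K27ac, H3K4me3 and Pol II cover or adjoin each TSS, H3K4me1 lies to either side, and p300/CBP boxes appear around KRT7.

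KRT8 had more than 1 marked TSS. Its gene model spans 52.8 kb and has 6 TSSs of basic transcripts, the last of which lie at KRT18. The window of the TSS at 53320253 on chromosome 12 held H3K4me1 and H3K27ac over 3000 bp, H3K4me3 over 598 bp and Pol II over 2598 bp. The RefSeq promoter entry read for KRT8 starts at that TSS, and other RefSeq starts of KRT8 were not read. The window of the TSS at 53300402 held H3K27ac over 3000 bp, H3K4me3 over 349 bp and Pol II over 799 bp.

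The KRT8 TSSs at 53343608, 53343626 and 53343658 had H3K4me3 and Pol II over all 3000 bp, but their windows overlap that of KRT18, which is read in the opposite direction. From peaks alone the promoters of KRT8 and KRT18 cannot be told apart there. The KRT8 and KRT18 windows were also less unique than most: 84.0% and 76.6% of their 32-base words occurred once in the genome, so uniquely mapped reads had fewer places to land, and both still held peaks.

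The basal and wound-activated keratins carried none of the promoter marks at their canonical TSSs. H3K27ac, H3K4me3 and Pol II were absent from the windows of all 8, which are KRT5, KRT14 and KRT15 of basal cells and KRT6A, KRT6B, KRT6C, KRT16 and KRT17, which are induced in wounded epidermis. KRT15, KRT14, KRT16 and KRT17 had H3K4me1, over 1091, 96, 1400 and 926 bp of the window in that order. KRT5, KRT6A, KRT6B and KRT6C had no peak of any list in the window or the gene body.

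At KRT14, the nearest H3K4me1 peak was 350 bp wide and lay 1.40 kb upstream of the TSS, at the rim of the window, while at KRT16 a peak of 1400 bp covered the TSS. Several of these windows are among the least unique of the family: 55.1% of 32-base words were unique at KRT6C, 63.1% at KRT6B, 64.4% at KRT16, 64.9% at KRT17, 73.8% at KRT14 and 80.2% at KRT6A. KRT5 and KRT15 were above 90%. The part of repeated sequence in the missing peaks was not tested.

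KRT15 depended on which TSS was read. Its canonical window held H3K4me1 alone, but the windows of its TSSs at 39677271 and 39677971 on chromosome 17 held H3K27ac over 1520 and 2220 bp, H3K4me3 over 550 bp each and Pol II over 970 and 1670 bp. An H3K4me3 peak of 550 bp lay 2.71 kb upstream of the canonical TSS, apart from the KRT19 H3K4me3 peak, while H3K27ac and Pol II there were the peaks shared with KRT19. With every basic TSS read, KRT15 was the gene gained for H3K27ac, H3K4me3 and Pol II.

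The suprabasal, mucosal and corneal keratins had H3K27ac, H3K4me3 or Pol II in 0 of 9 windows. KRT4, of mucosal epithelium, had H3K4me1 over 900 bp, with its nearest edge 0.101 kb upstream of the TSS, and the windows of the other 8, which include KRT1, KRT2, KRT9 and KRT13, had no peak. KRT10, the partner of KRT1, had no peak in its window, yet its gene body held H3K27ac of 2250 bp, H3K4me3 of 2200 bp and Pol II of 1150 bp. These lay 2.32 to 2.77 kb past the KRT10 TSS and covered the TSS of KRT10-AS1, a long noncoding RNA gene.

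Among the 7 other epithelial keratins, KRT80 was the gene with promoter marks. KRT79 and KRT78, which are neighbours in the type II cluster, had H3K4me1 alone, over 244 and 723 bp. KRT23 had no peak in its window and a p300/CBP peak of 100 bp in an intron, 2.85 kb past its TSS. KRT24, KRT77 and KRT222 had none.

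The 9 keratins of the inner root sheath and companion layer, KRT25, KRT26, KRT27, KRT28, KRT71, KRT72, KRT73, KRT74 and KRT75, were without any peak of the 6 lists in the window or the gene body. Of the 17 hair keratins, 0 had H3K4me3 or Pol II in the window, beside 62.7 and 58.4% of all genes. H3K27ac was in 2 of these windows (11.8%), beside 61.4% of all genes. KRT34 had H3K27ac over 1043 bp and H3K4me1 over 643 bp, and KRT33B had 286 and 636 bp. The edges of H3K27ac nearest to the TSS lay inside the gene, 0.458 kb past the TSS at KRT34 and 1.22 kb past it at KRT33B, so that neither peak covered the TSS.

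KRT34 was also the hair keratin with p300/CBP nearest to its TSS, a peak of 150 bp in an intron 1.96 kb past it, beside an H3K4me3 peak of 250 bp at 2.31 kb. KRT32 had H3K4me1 over 113 bp of its window. KRT86 had no peak in its window, but its gene model of 59.9 kb runs from within KRT7 across KRT81 and held 6 peaks of H3K4me1, 5 of H3K27ac, 2 of H3K4me3, 2 of Pol II, 2 of p300/CBP and 5 of CTCF. The Pol II peak of 14350 bp counted there is that of KRT7.

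The 100 bases before the TSSs of KRT34 and KRT33B, whose H3K27ac stops short of the TSS, and of KRT10, whose peaks lie at an antisense gene, are shown on the minus strand, on which they are read. They are RefSeq promoter sequences (GRCh38.p14) that were matched to hg19 at chr17:39526066-39526165 for KRT33B, chr17:39538559-39538658 for KRT34 and chr17:38978867-38978966 for KRT10. Capitals mark the words TATAAA or else TATATA, searched on both strands.

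KRT33B: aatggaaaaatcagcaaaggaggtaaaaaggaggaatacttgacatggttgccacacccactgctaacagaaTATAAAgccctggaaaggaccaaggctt
KRT34: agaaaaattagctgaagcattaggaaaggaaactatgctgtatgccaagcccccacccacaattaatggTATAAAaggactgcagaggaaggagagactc
KRT10: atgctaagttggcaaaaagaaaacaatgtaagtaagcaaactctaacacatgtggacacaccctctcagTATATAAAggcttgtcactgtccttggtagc

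The match began at position -28 at KRT33B, -31 at KRT34 and -31 and -29, overlapping, at KRT10, with +1 the TSS. Over the whole 300 bases of the table, 11.6% of the 15238 protein-coding promoters matched held either word. A check of motifs over the family is void, because 34 of 55 keratins (61.8%, under the 80% needed) have an entry in the table. KRT7, KRT18, KRT19 and KRT80 are among those without an entry.

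Gene bodies gave more keratins with peaks than TSS windows. H3K4me1 lay in the bodies of 24 keratins, beside 76.5% of all genes, and H3K27ac in 14, beside 69.8%. H3K4me3 lay in 9, beside 69.3%, and Pol II in 8, beside 63.6%. p300/CBP lay in 4, which are KRT7, KRT86, KRT23 and KRT34, beside 10.9%, and CTCF in 9, beside 50.6%. Keratin genes are short, so these shares are not matched for length.

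The type II span ran from 52562780 to 53346690 on chromosome 12, over 784 kb, and the marks gathered at its ends. H3K4me1 covered 15.8% of it, H3K27ac 7.46%, H3K4me3 2.06%, Pol II 5.61%, p300/CBP 0.191% and CTCF 0.861%, where the genome-wide shares were 5.92, 2.50, 1.34, 1.51, 0.0960 and 0.424%. Parts of the span were drawn after the peaks had been seen, so their values are descriptions. From KRT80 to KRT86, over 140 kb with 4 keratin TSSs, H3K4me1 covered 54.2%, H3K27ac 25.6% and Pol II 19.5%.

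The middle of the cluster was close to empty of H3K27ac, H3K4me3, p300/CBP and Pol II. From KRT83 to KRT78, over 535 kb with 21 keratin TSSs, H3K27ac had 1 peak of 350 bp, and H3K4me3, p300/CBP and Pol II had 0. H3K4me1 had 14 peaks there, 2.62 per 100 kb beside 3.11 genome-wide, over 3.01% of the length beside 5.92%. CTCF had 7 peaks, 1.31 per 100 kb beside 1.39 genome-wide. At the far end, from KRT8 to KRT18, over 55.7 kb, H3K27ac covered 29.7%, H3K4me3 12.8% and Pol II 25.9%, with 0 p300/CBP peaks. Its 4 Pol II peaks were 1850, 700, 3400 and 9950 bp wide. Between KRT78 and KRT8 lay 2 more, of 950 and 1200 bp, and a peak of 200 bp lay in KRT86.

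The widest peaks of the type II span fell at the same genes. The 5 widest of H3K27ac were 11500 bp at KRT80, 7400 bp at KRT7, 6250 bp at KRT18, 5900 bp at KRT8 and 4850 bp at 21.5 kb upstream of KRT78. The 5 widest of H3K4me3 were 3700 bp at KRT7, 3650 bp at KRT18, 3050 bp at KRT80, 2600 bp at KRT8 and 1300 bp at 24.6 kb upstream of KRT78. For H3K4me1 they were 15250 bp in KRT7, 12450 bp in KRT86 and KRT81, 11550 bp at 14.6 kb upstream of KRT7, 10300 bp in KRT80 and 7150 bp at 20.7 kb upstream of KRT78.

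**Figure D4:**
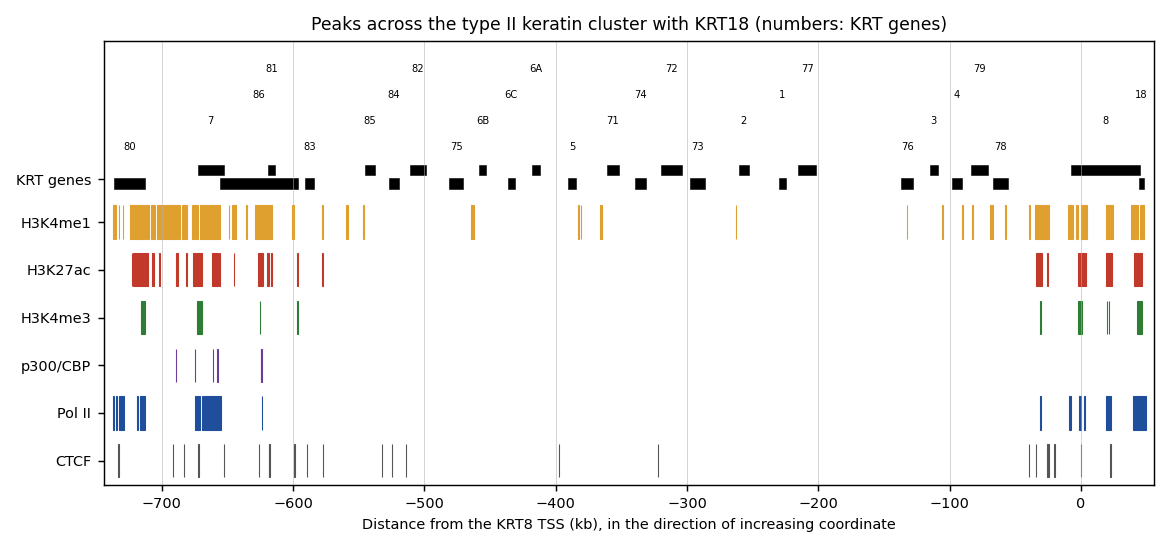
Peaks of the 6 lists across the type II cluster with KRT18, by distance in kb from the KRT8 TSS (0), with gene bodies in black and KRT numbers above. H3K27ac, H3K4me3 and Pol II lie mostly at the KRT80 to KRT86 end and from upstream of KRT78 to KRT18, and from KRT83 to KRT78 the H3K4me1 and CTCF peaks are joined by 1 H3K27ac peak of 350 bp.

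The longest stretch of the type II cluster without H3K27ac was chr12:52721351-53264300, 543 kb that held 20 protein-coding TSSs, all of them keratins from KRT85 to KRT78. Of the 40985 stretches between neighbouring H3K27ac peaks in the genome, 829 (2.02%) were at least as long. With this one included, 13 held at least as many protein-coding TSSs, among them a stretch of 761 kb and 32 TSSs on chromosome 1 from KPRP to S100A7, genes of the epidermal differentiation complex. The matching stretch without H3K4me3 was 565 kb with 21 keratin TSSs, and that without Pol II 592 kb with 22.

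Within the 543 kb, 16 H3K4me1 peaks covered 3.06% and 8 CTCF peaks 0.359%. Its proximal edge carried a CTCF peak of 350 bp that overlaps the last H3K27ac peak, 6.12 kb upstream of the KRT83 TSS. The middle 300 bases of this peak, at chr12:52721326-52721625 on the plus strand, are shown because they lie at that edge. The H3K27ac peak there was 350 bp wide. At the other edge, a CTCF peak of 500 bp overlapped an H3K27ac peak of 4850 bp. Capitals mark core words of CTCF on either strand, which were AGAGGGC, the word AGATGGC, the word AGGGGGC and the word AGGTGGC.

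CTCF upstream of KRT83: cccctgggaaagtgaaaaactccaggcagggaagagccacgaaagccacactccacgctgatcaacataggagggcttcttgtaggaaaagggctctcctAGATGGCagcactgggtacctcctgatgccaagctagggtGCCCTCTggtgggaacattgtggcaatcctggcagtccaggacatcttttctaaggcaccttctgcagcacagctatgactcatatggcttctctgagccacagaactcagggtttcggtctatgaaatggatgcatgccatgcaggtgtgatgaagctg

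These words were found in 23 of 36 CTCF peaks of the spans (63.9%) and in 55.7% of the 39596 in the whole list, and TGANTCA in 5.56% and 8.54% of them.

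The type I span ran from 38810917 to 39781094 on chromosome 17, over 970 kb, and is split by the KRTAP genes. H3K4me1 covered 13.3%, H3K27ac 6.76%, H3K4me3 1.52%, Pol II 1.76%, p300/CBP 0.423% and CTCF 0.541%. Its longest stretch without H3K27ac was 225 kb and held 17 TSSs, 1 of them a keratin, KRT33A, while its longest stretch without Pol II was 393 kb with 29 TSSs, 9 of them keratins. CTCF was missing over 358 kb and 36 TSSs, mostly KRTAP genes, and no other of the 39491 stretches between CTCF peaks held as many.

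From KRT222 to KRT40, over 332 kb with 12 keratin TSSs, H3K27ac covered 3.90%, and the H3K4me3 peak was the 1 at KRT10-AS1. From KRT33A to KRT17, over 279 kb with 16 keratin TSSs, H3K4me1 covered 20.4%, H3K27ac 10.0% and H3K4me3 3.35%. The 6 Pol II peaks of the span lay at KRT10-AS1 (900 and 1150 bp), in the KRTAP genes (3000 bp), 7.04 kb upstream of the KRT36 TSS (300 bp), at KRT19 (9700 bp) and 19.0 kb upstream of the KRT19 TSS (2000 bp).

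In the type I span the widest peaks were shared between KRT19 and the KRTAP genes. The 5 widest of H3K27ac were 10450 bp at KRT19 and KRT15, 8900 bp at KRTAP4-16, 5050 bp at KRTAP2-3, 4100 bp in KRT34 and 4000 bp at KRTAP4-7. The 5 widest of H3K4me3 were 6650 bp at KRT19, 2200 bp at KRT10-AS1, 1900 bp at 19.1 kb upstream of KRT19, and 1650 and 1000 bp at KRTAP4-16. For H3K4me1 they were 12150 bp at KRTAP4-16, 9100 bp from 2.04 kb upstream of the canonical KRT36 TSS, 6700 bp across KRT15 and the end of KRT19, 6650 bp at KRTAP2-3 and 5300 bp at KRT39.

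**Figure D5:**
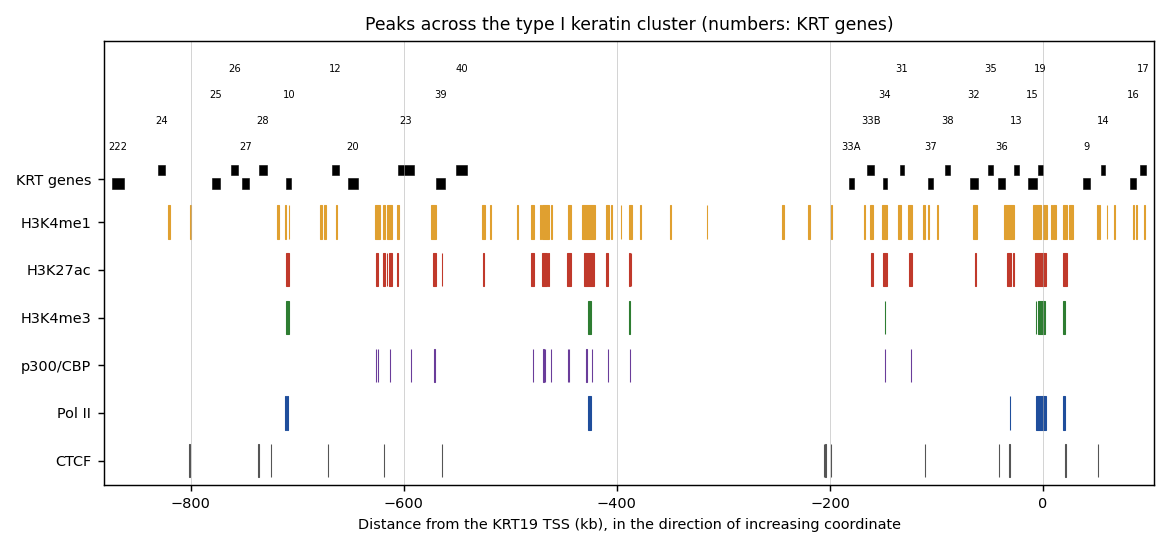
Peaks of the 6 lists across the type I cluster, by distance in kb from the KRT19 TSS (0), with gene bodies in black and KRT numbers above. p300/CBP peaks lie mainly in the KRTAP block between KRT40 and KRT33A, and the widest H3K4me3 and Pol II peaks lie at KRT19.

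p300/CBP peaks numbered 17 in the type I span and 6 in the type II span, 1.75 and 0.765 per 100 kb beside 0.484 genome-wide. Of the 17, 10 lay among the KRTAP genes, a density of 2.79 per 100 kb. Of the other 7, 2 lay 17 and 18.5 kb upstream of KRT20, 1 at 22 kb and 1 at 2.85 kb past the KRT23 TSS, 1 at 9.70 kb past the KRT39 TSS, 1 in KRT34 and 1 at 6.34 kb upstream of KRT31.

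In neither cluster did p300/CBP lie in the window of a marked keratin TSS. It lay in 0.769% of the windows of all protein-coding genes, so this absence says little. The nearest peak was 2.58 kb from the TSS at KRT7 and 23.6 kb at KRT80, but 124 kb at KRT19, 624 kb at KRT8 and 613 kb at KRT18. The p300/CBP peak upstream of KRT31 lay outside protein-coding genes, 1526 bp past the TSS of a long noncoding RNA gene (ENSG00000234859), and held 2 TGANTCA matches, in capitals in its middle 300 bases at chr17:39560226-39560525, plus strand.

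KRT31 upstream 6.34 kb: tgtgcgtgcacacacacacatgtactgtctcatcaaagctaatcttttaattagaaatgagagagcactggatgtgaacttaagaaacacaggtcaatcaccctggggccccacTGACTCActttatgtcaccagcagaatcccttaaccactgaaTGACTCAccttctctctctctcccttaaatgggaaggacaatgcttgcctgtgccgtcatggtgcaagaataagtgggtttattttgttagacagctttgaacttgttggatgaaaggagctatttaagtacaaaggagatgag

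TGANTCA was present in 13 of 23 p300/CBP peaks of the spans (56.5%) and in 28.1% of the 13983 of the whole list. Among peaks that share a base with H3K4me1 the shares were 59.1% of 22 and 42.7% of 8090. The peaks of the spans were wider, 243 bp on average against 197 bp, and wider peaks hold more words. A match is a word in the sequence, and nothing here shows what bound it.

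Some p300/CBP peaks among the KRTAP genes are copies of each other in sequence. Of the 319 words of 32 bases in the peak nearest KRTAP4-9, 73.4% recurred in the peak nearest KRTAP4-7, and of the 169 in the peak nearest KRTAP4-11, 55.6% recurred in the peak nearest KRTAP4-8. The part of reads from duplicated sequence in the 10 peaks was not tested.

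Candidate active enhancers (cAEs), a class the study defines by H3K4me1 with H3K27ac away from promoters, were read here as H3K4me1 regions that share at least 1 bp with H3K27ac and touch no 3 kb window of a GENCODE protein-coding TSS, so their number need not be that of the study. They numbered 10 in each span, or 10.3 per Mb in type I and 12.8 in type II beside 8.57 in the genome. Of the 10 in type II, 6 lay between KRT80 and KRT81, and the widest, of 12.4 kb, lay in the KRT86 and KRT81 genes with 2 p300/CBP, 3 CTCF and 1 Pol II peak. Another of 5.45 kb held the upstream KRT8 TSS, which the canonical windows do not cover. CTCF lay in 7 of the 10 (70.0%) and p300/CBP in 2, beside 16.4% and 20.6% of the 24323 cAEs of the genome. The cAEs of the spans were wider, with medians of 4125 bp in type II and 3700 bp in type I against 2550 bp in the genome, and wider regions hold more peaks.

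In type I, p300/CBP lay in 4 of 10 cAEs (40.0%) and CTCF in 3. The widest, of 9.10 kb, began 2.04 kb upstream of the canonical KRT36 TSS and held 1 Pol II and 1 CTCF peak. It held another KRT36 TSS, at 39648798, which the canonical windows do not cover. A cAE of 3.95 kb, 18.4 kb upstream of KRT19, was covered by H3K27ac over 91.1% and held H3K4me3, Pol II and CTCF.

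Partners and regulators of keratin filaments, lists drawn up with earlier results known, were read in the same windows. Of 22 genes of desmosomes, hemidesmosomes and linkers, 13 (59.1%) had H3K4me3, close to the 62.7% of all genes. They included DSP, which anchors keratin filaments at desmosomes (3000 bp of H3K4me3), PLEC, the linker plectin (3000 bp), ITGB4, of hemidesmosomes (2138 bp), and JUP (800 bp). The desmosomal cadherins DSG2 and DSC2 of simple epithelia had it (1950 and 1517 bp). DSG1, DSG3, DSC1 and DSC3 had no peak of any list in the window.

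Of 15 other intermediate filament genes, 7 had H3K4me3 (46.7%, interval 24.8 to 69.9%), beside 62.7% of all genes. VIM, which encodes vimentin, the filament of mesenchymal cells, had H3K27ac and H3K4me3 over 3000 bp, Pol II over 2889 bp and p300/CBP over 200 bp. NES, SYNM, LMNA, LMNB1, LMNB2 and BFSP1 were the others, and DES and GFAP had no H3K4me3.

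Of 19 regulators of epithelial keratin genes, 12 (63.2%) had H3K4me3, close to the 62.7% of all genes. The AP-1 genes FOSL1, FOSL2, JUN and JUNB had it over 3000, 2500, 3000 and 3000 bp, and KLF4 and KLF5 over 1951 and 2342 bp. TP63, which drives basal keratins, had H3K4me1 over 1350 bp and H3K27ac over 250 bp at its canonical TSS but no H3K4me3 there. GRHL2, OVOL1 and ZNF750 had no peak in the window. As a check on the cells, VIM, CD44 and ITGB1 each had H3K27ac, H3K4me3 and Pol II in the window. ESR1, GATA3, CDH1 and EPCAM had no peak in the window, while PGR had H3K4me3 alone over 700 bp. FOXA1, a luminal gene, had H3K27ac over 2397 bp, H3K4me3 over 2647 bp and Pol II over 300 bp. The gene bodies of these 6 luminal or epithelial genes were less bare than their windows. H3K27ac lay in 5, H3K4me3 in 5 and Pol II in 4, beside 69.8, 69.3 and 63.6% of all genes.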

How the data were processed

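ChIP-seq had been run on 13 samples of MDA-MB-231 cells, 2 of them input libraries, which were left aside. Alignment by the authors was to hg19, with BWA-backtrack according to the methods and Bowtie2 according to the submitters' processing notes. Signal from reads that mapped once was binned at 50 bp, replicates were merged, and a threshold on that signal gave the peaks. The labels of the lists name a background subtraction for H3K4me1, H3K27ac, H3K4me3 and p300/CBP, and none for Pol II or CTCF. Coverage is thus not on the same footing between lists. The deposited lists hold positions with no count, height or score, so depth per sample is unknown. Every position is 1 past a multiple of 50, and the end was taken as the first base after the peak.

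Genes and TSSs were those of GENCODE release 44 on GRCh37, in place of the RefSeq set of the paper. A peak counted where it shared at least 1 bp with a window, gene body or span. With 1 list per antibody, no test was run. The members and gene lists were chosen with earlier results of these data known. Named genes were those with H3K27ac or H3K4me3 in the window, p300/CBP or Pol II in the window or body, or H3K4me1 or CTCF alone in the window (up to 10 each), and the simple epithelial and basal keratins; KRT10-AS1, the KRTAP genes and further members were named after their values had been seen. Alternatives changed the window, the overlap, the TSSs, the width of peaks kept, the spans and the cAE definition, and, chosen after seeing the data, the uniqueness of the windows. Python 3.11.15, NumPy 2.4.6 and SciPy 1.17.1 were used, with matplotlib 3.10.9 for figures. Overlap functions were tested on simulated peaks, with 0 wrong answers in 1200 comparisons.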

Additional observations from a re-analysis of the deposited data

How the results depend on the processing

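Of 78 alternative values for 26 results, 54 stayed within 1.5 times. No paired analysis was possible because each antibody has 1 list made from merged replicates. None could thus be left out in turn, and without heights no stricter threshold could be set. With the peak centre in the window, keratins with H3K4me1 numbered 4 and with H3K27ac 3, and the shares of all genes were 38.7% and 58.1%. A 5 kb window gave 11 with H3K27ac (gaining KRT10, KRT15, KRT32 and KRT39) and 1 with p300/CBP (KRT34), beside 62.7% and 1.26% of all genes. Wide peaks alone gave 1 keratin window (KRT8, beside 11.3% of all genes) and 3 gene bodies with CTCF. They left 34 H3K4me1, 15 H3K27ac and 4 H3K4me3 peaks in the type I span and 24, 12 and 5 in the type II span, with 14 CTCF peaks in type II. Extending the type I span by 50 kb gave 10 Pol II peaks. Without the promoter exclusion, cAEs numbered 21 in type I and 17 in type II. Wide peaks alone gave 6 and 5, and asking for 50% coverage by H3K27ac gave 2 in type II. Among the 39 keratins whose windows held at least 90% unique words, fewer genes by construction, 8 had H3K4me1 (20.5%), 4 H3K27ac (10.3%), 3 H3K4me3 (7.69%), 3 Pol II and 1 CTCF, and 31 (79.5%) had no peak. H3K4me3 marked 5 keratins under windows of 2 kb, peak centres and wide peaks, 6 with all basic TSSs and 7 with 5 kb (64.4% and 63.7% of all genes).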
